A study of Mus musculus with 3 samples.

Results

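Antigen presentation by MHC class I was followed through 10 genes, H2-K1, H2-D1, B2m, Tap1, Tap2, Tapbp, Nlrc5, Psmb8, Psmb9 and H2-T23, in single-cell transcriptomes of mouse liver. They were taken by symbol from the 34099 genes of the count matrices, and all 10 were detected in each library. Each of 3 mice received 500 mg/kg acetaminophen (APAP), an overdose that injures the liver, and an infusion 6 h later, and its liver was collected after 4 days. One mouse, called engineered MSC here, was given engineered mesenchymal stromal cells (MSCs) carrying bispecific polyvalent peptides, another was given native MSCs, and the third was given PBS. Strain, sex and age of the mice and the source of the MSCs are not given in the sources used here, no liver without APAP was analysed, and infused cells were not told apart from the liver's own. With 1 mouse in each group, no difference below has a replicate check. Every interval covers counting error only, and mouse, treatment and library cannot be told apart.

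MHC class I molecules show fragments of a cell's own proteins to CD8 T cells. The immunoproteasome, whose inducible subunits include Psmb8 and Psmb9, cuts proteins into peptides. The Tap1 and Tap2 transporter carries these into the endoplasmic reticulum, where Tapbp (tapasin) helps load them onto a heavy chain paired with beta-2 microglobulin (B2m). H2-K1 and H2-D1 encode the classical heavy chains, and H2-T23 encodes Qa-1, which presents a narrow set of peptides and is read by the inhibitory receptor CD94/NKG2A on NK cells. Nlrc5 is the transcriptional activator of these genes and acts at their promoters together with the RFX proteins, and interferons raise the whole set. Hepatocytes are known for little class I at rest, whereas Kupffer cells and sinusoidal endothelium present antigen to T cells passing through the liver.

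The promoters in which Nlrc5 and interferon-driven factors act are shown first, since the genes are read below as a set. Each window runs from 250 bases before to 50 bases after the annotated start on the gene's strand, 5′ to 3′, and comes from RefSeq on build GRCm38.p6, an older build than the GRCm39 of the count matrices. 8 of the 10 genes had a window, all on chromosome 17 except that of B2m on chromosome 2. Capitals mark matches, on either strand, to 4 motifs: ISRE as GAAA and GAAA with NN between them, Y box as GATTGG, kappa B as GGGNNTTCC, and the letters TGACGC, the core of the X2 box. These were present in 3.44%, 16.1%, 5.82% and 7.4%, in that order, of 32851 windows of the same length. A match is a description of the letters and not a mapped site.
H2-K1, chr17:34000298-34000597, minus strand: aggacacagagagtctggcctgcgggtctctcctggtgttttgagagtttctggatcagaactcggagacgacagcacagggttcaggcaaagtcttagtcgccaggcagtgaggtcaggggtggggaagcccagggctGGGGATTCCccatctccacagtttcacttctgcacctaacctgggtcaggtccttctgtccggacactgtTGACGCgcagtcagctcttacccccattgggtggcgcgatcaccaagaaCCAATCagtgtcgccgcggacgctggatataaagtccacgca
H2-D1, chr17:35262844-35263143, plus strand: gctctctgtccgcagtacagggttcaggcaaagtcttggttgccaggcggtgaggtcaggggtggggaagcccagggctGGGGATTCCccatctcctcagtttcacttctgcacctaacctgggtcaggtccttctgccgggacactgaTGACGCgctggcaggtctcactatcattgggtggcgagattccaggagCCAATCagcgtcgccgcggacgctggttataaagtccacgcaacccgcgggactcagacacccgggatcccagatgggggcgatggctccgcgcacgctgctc
B2m, chr2:122147437-122147736, plus strand: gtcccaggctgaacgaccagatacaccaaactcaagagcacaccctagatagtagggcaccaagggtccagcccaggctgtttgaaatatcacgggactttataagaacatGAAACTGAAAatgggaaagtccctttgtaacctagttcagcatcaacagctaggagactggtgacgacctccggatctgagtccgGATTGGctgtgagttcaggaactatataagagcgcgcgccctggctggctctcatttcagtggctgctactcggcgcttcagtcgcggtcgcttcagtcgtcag
H2-T23, chr17:36032652-36032951, minus strand: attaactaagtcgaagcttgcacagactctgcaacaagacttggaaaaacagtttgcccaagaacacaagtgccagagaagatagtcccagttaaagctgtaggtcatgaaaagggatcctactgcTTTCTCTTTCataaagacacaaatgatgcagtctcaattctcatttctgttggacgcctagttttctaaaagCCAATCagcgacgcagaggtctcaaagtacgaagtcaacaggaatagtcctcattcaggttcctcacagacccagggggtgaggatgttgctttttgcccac
Tap1, chr17:34187306-34187605, plus strand: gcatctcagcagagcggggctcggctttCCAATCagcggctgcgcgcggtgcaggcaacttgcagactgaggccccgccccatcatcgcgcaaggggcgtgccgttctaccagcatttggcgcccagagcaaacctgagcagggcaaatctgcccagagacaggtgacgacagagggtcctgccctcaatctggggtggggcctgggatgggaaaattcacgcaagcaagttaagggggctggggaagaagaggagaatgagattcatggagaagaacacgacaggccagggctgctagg
The windows of both classical heavy chains held a kappa B, a TGACGC and a Y box match and shared an unbroken run of 47 bases around the kappa B match. H2-K1 has 2 windows in the table and the first is shown. B2m and H2-T23 each held an ISRE and a Y box match. The Tap1 window overlaps the Psmb9 window on the opposite strand by 275 bases, and the same Y box match was found in both. The windows of Tapbp and Psmb8 held none of the 4 letter patterns.

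Libraries contained 11028 barcodes for engineered MSC, 11479 for native MSC and 10739 for PBS, with 62564254, 84950721 and 82247448 unique molecular identifiers (UMIs, each standing for 1 captured transcript). After filters and removal of marked doublets, 9129, 9179 and 9537 cells were kept with median depths of 3667, 5673 and 5783 UMIs, and 39 to 46 barcodes were shared between any pair of libraries. Cell classes were named from marker genes after clustering without the genes of this pathway, and levels are UMIs of a gene per 1000000 UMIs of its class (CPM). Classes with at least 100 cells in each library of a pair were compared, and a gene counts as higher or lower at a 1.5-fold difference among genes with at least 20 UMIs over the pair. The libraries differed in what they held: neutrophil-like cells numbered 241 in engineered MSC, 2449 in native MSC and 612 in PBS, and endothelium-like cells 1802, 133 and 1085. They also differed in transcripts of other cells. Hepatocyte transcripts such as Alb were higher in engineered MSC than in PBS in all 11 other classes compared, with a median log2 ratio of 2.93 to 4.08 over 15 genes, and haemoglobin transcripts were higher than in PBS both in engineered MSC, in 11 of 12 classes with medians of 3.38 to 9.80, and in native MSC, in 9 of 9 with medians of 4.14 to 10.92. The neutrophil transcripts S100a8 and S100a9 summed to 18.2-fold, 11.2-fold and 5.73-fold of PBS in hepatocyte-like, macrophage-like and endothelium-like cells of native MSC. In engineered MSC these ratios were 1.13, 1.17 and 0.445. Hepatocyte transcripts were higher in native MSC than in PBS for 13 of 15 genes in both macrophage-like and endothelium-like cells. Such transcripts enlarge the total by which each CPM is divided, and their part in the results was tested only through other class totals. The reduced class total did not leave out the neutrophil transcripts. H2-K1, H2-D1 and the other heavy chains are near-identical in part, and how the counting assigned reads that match several of them is not given in the sources used here, so levels of single heavy chains are uncertain. Counts come from the 3′ ends of transcripts and are not levels per length, so genes are compared across classes and libraries, not with each other.

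Over whole libraries the 10 genes together made up 4259 CPM in engineered MSC (95% Poisson interval 4241 to 4277), 3433 CPM in native MSC (3420 to 3447) and 3551 CPM in PBS (3538 to 3565). Nlrc5 was at 51.9 CPM in engineered MSC, against 26.8 CPM in native MSC and 27.6 CPM in PBS. H2-K1 was at 1206, 734 and 844 CPM and B2m at 1486, 961 and 1234 CPM in the same order, both highest in engineered MSC. H2-D1 was highest in native MSC, at 1016 CPM, against 808 CPM in engineered MSC and 800 CPM in PBS, and so was Psmb8, at 252 CPM, against 171 CPM in engineered MSC and 195 CPM in PBS. Tapbp was highest in PBS, at 162 CPM, against 143 CPM in engineered MSC and 113 CPM in native MSC. These totals mix cell classes whose numbers differed, so the classes are described next.

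NK-or-ILC1-like, T-cell-like and plasmacytoid-dendritic-cell-like cells carried the highest summed levels of the 10 genes in each library, and hepatocyte-like and erythroid-like cells the lowest. B-cell-like cells lay in the middle, at 4066 CPM in engineered MSC, 3890 CPM in native MSC and 3454 CPM in PBS. NK-or-ILC1-like cells were at 7349 CPM in engineered MSC, 6637 CPM in native MSC and 6453 CPM in PBS (93, 91 and 32 cells). Plasmacytoid-dendritic-cell-like cells, the main makers of type I interferon, were at 7192, 5987 and 5571 CPM in the same order, and T-cell-like cells at 6395, 6548 and 5981 CPM. The order of these 3 classes differed between libraries, and in PBS the interval of the NK-or-ILC1-like cells (5978 to 6956 CPM) overlapped that of the T-cell-like cells (5851 to 6112 CPM). Dendritic-cell-like cells followed at 6226 CPM in engineered MSC, 5089 CPM in native MSC and 5072 CPM in PBS. Hepatocyte-like cells were at 1421 CPM (1393 to 1450), 1211 CPM (1185 to 1239) and 979 CPM (930 to 1031). Erythroid-like cells were at 603 CPM in engineered MSC and 1109 CPM in native MSC, and PBS held only 2 such cells.

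Several classes in the middle of this order also differed between libraries. Endothelium-like cells had 4448 CPM in engineered MSC (4411 to 4485), against 2670 CPM in native MSC (2585 to 2756) and 2407 CPM in PBS (2372 to 2442). Kupffer-cell-like cells, which line the sinusoids as the liver's own macrophages, had 5320 CPM in engineered MSC (5230 to 5412) and 3170 CPM in PBS (3122 to 3219), with 4362 CPM over only 30 native MSC cells. Macrophage-like cells had 5586 CPM in engineered MSC (5508 to 5665), 4767 CPM in native MSC (4705 to 4830) and 3637 CPM in PBS (3615 to 3659), an order in which no intervals overlap. Neutrophil-like cells ran differently, with 4043 CPM in engineered MSC (3892 to 4197), 3390 CPM in native MSC (3349 to 3431) and 4686 CPM in PBS (4570 to 4803). With every cell thinned to 1000 UMIs, the median cell held 4, 2 and 2 UMIs of the 10 genes in the endothelium-like class (unthinned 27, 27 and 14), 6, 5 and 3 in the macrophage-like class (unthinned 60, 60 and 47), and 6 in engineered MSC against 3 in PBS among Kupffer-cell-like cells (unthinned 24 and 18). Thinning left out 23, 3 and 4 shallower endothelium-like cells, 1, 16 and 24 macrophage-like cells, and 36 and 49 Kupffer-cell-like cells.

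**Figure D1:**
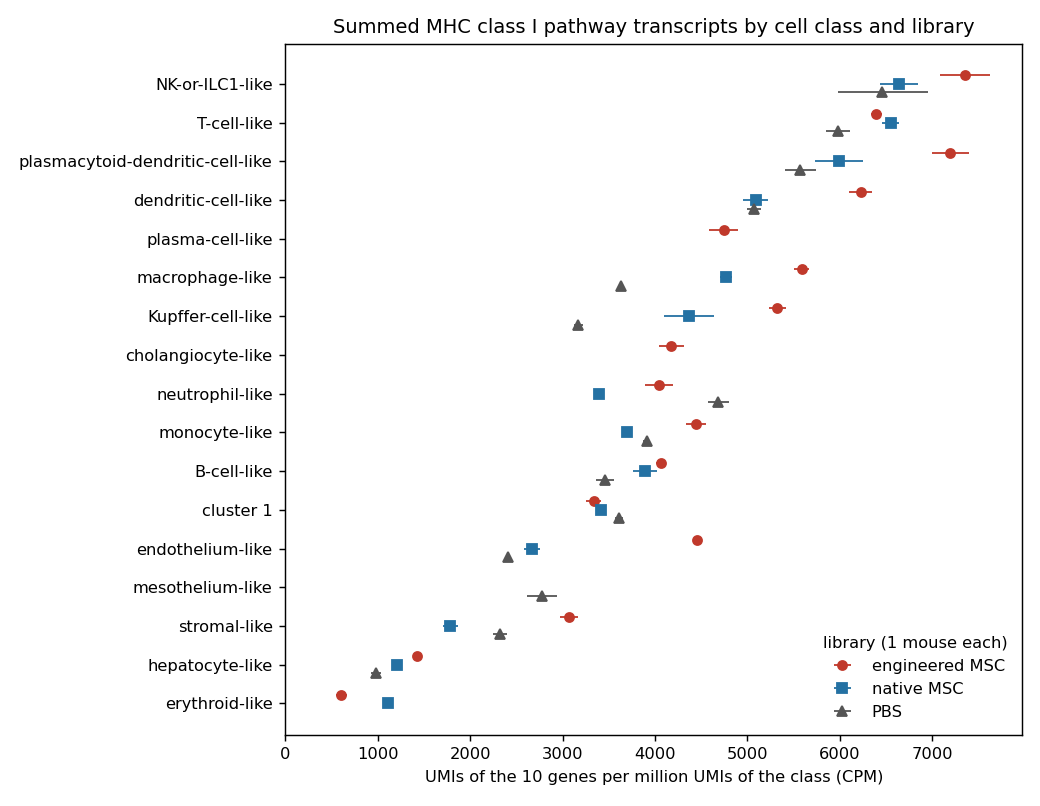
Summed level of the 10 genes by cell class and library, in CPM. Each point is 1 library and bars are 95% Poisson intervals, which cover counting error only. Endothelium-like, Kupffer-cell-like and macrophage-like cells of engineered MSC lie right of those of PBS, while neutrophil-like cells of engineered MSC lie left of those of PBS.

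Between engineered MSC and PBS, 29 of the 120 pairs of a gene and a class were at least 1.5-fold higher in engineered MSC and 5 were at least 1.5-fold lower, over 12 classes. These were 24.2% and 4.17% of the pairs, where 16.8% and 15.8% of the pairs of any gene tested and a class were higher and lower. The median log2 ratio of the 10 genes was above 0 in 10 of the 12 classes and above that of all genes in the same class in 10. Of the 29 pairs, 10 were in endothelium-like, 7 in Kupffer-cell-like and 6 in macrophage-like cells. Psmb9 and H2-T23 were above 1-fold in all 12 classes, with intervals above 1 in 7 and 9 of them. Tapbp went the other way, below 1-fold in 9 of 12 classes with intervals below 1 in 4.

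In endothelium-like cells all 10 genes were higher in engineered MSC than in PBS, where 20.7% of all genes tested were higher and 18.8% lower. Their median log2 ratio was 0.87 against 0.01 for all genes. Among the heavy chains, H2-K1 was at 1267 CPM in engineered MSC and 660 CPM in PBS (ratio 1.92, 95% interval 1.86 to 1.98), and H2-D1 was at 749 and 431 CPM (ratio 1.74). H2-T23 showed the widest difference, with 159 CPM in engineered MSC against 35.8 CPM in PBS (ratio 4.45, 3.92 to 5.06). Their partner B2m was at 1791 and 1025 CPM (ratio 1.75, 1.70 to 1.79). The proteasome subunits were unequal: Psmb9 was at 89.8 CPM in engineered MSC and 25.1 CPM in PBS (ratio 3.58, 3.07 to 4.19), and Psmb8 at 69.1 and 45.9 CPM (ratio 1.51, but down to 1.39 under 4 of the alternative settings). The peptide transporter and its loading factor lay between, with ratios of 1.53 for Tap1 (46.8 and 30.5 CPM), 1.96 for Tap2 (56.5 and 28.9 CPM) and 1.74 for Tapbp (190 and 110 CPM). The activator Nlrc5 was at 30.4 CPM in engineered MSC and 15 CPM in PBS (ratio 2.03, 1.64 to 2.52). Markers of other cells moved beside this. The 10 macrophage markers summed to 4007 CPM in endothelium-like cells of engineered MSC, 3086 CPM of native MSC and 2498 CPM of PBS, and the 10 T-cell markers to 25.6, 15.5 and 16.3 CPM. All 8 sinusoidal markers found in the files were present in each library, at 13363, 9638 and 7748 CPM. The part of these differences in the result was not tested.

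Most endothelium-like cells of the 2 livers fell into different clusters: 1570 of the 1802 engineered MSC cells were in a cluster led by Wnt2, Ehd3 and Clec4g, and 1040 of the 1085 PBS cells in a cluster led by Inhbb, Esm1 and Apln. The cluster that held the PBS cells also held 72 engineered MSC cells, which were compared with the PBS cells there. Clustering placed these cells by their expression, so they were chosen for likeness to PBS cells and smaller differences may follow from that choice. There 2 of 10 genes were higher in engineered MSC (13.5% of all genes), H2-T23 at 2.62-fold and Psmb9 at 1.85-fold, and the median log2 ratio was 0.39. H2-K1 and B2m, at 0.929 and 0.893, were not above PBS in that cluster.

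In Kupffer-cell-like cells 7 of 10 genes were higher in engineered MSC than in PBS (24% of all genes; 14.3% were lower) and the median log2 ratio was 0.69 against 0.09 for all genes. H2-T23 was at 189 CPM in engineered MSC and 76.1 CPM in PBS (ratio 2.48, 2.16 to 2.84), H2-K1 at 1414 and 810 CPM (1.75), H2-D1 at 1067 and 647 CPM (1.65) and B2m at 1973 and 1117 CPM (1.77). Nlrc5 was at 45.1 and 23.5 CPM (1.92, 1.47 to 2.51), Psmb9 at 154 and 97.3 CPM (1.58) and Tap1 at 78.4 and 52.3 CPM (1.5, 1.24 to 1.81, and 1.40 to 1.49 under 5 of the alternative settings). Psmb8 was level, at 138 CPM in engineered MSC and 137 CPM in PBS (ratio 1.00, 0.879 to 1.14), and Tap2 and Tapbp reached ratios of 1.35 and 1.23. Within the larger Kupffer-cell-like cluster, of 280 and 618 cells, 7 of 10 genes were again higher (17.1% of all genes; median log2 ratio 0.71). A smaller one, of 116 and 59 cells, had all 10 higher (21.5%; median 0.93). The smaller cluster had a marker score of 3.07 for Kupffer cells, with sinusoidal endothelium next at 2.19. In the larger one the Kupffer score was 4.78, with macrophages next at 1.03. Sinusoidal endothelial markers summed to 3291 CPM in all Kupffer-cell-like cells of engineered MSC and 538 CPM of PBS. Kupffer markers were at 13202 and 12396 CPM, and the part of the endothelial transcripts was not tested.

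In macrophage-like cells 6 of 10 genes were higher in engineered MSC than in PBS (17.8% of all genes; 14.8% were lower) and the median log2 ratio was 0.66 against 0.03. Nlrc5 stood at 49.5 CPM in engineered MSC and 20.0 CPM in PBS (ratio 2.48, 2.08 to 2.95). H2-T23 followed with 185 and 86.2 CPM (2.14), Psmb9 with 160 and 83.2 CPM (1.92), H2-K1 with 1308 and 807 CPM (1.62), Tap1 with 79.4 and 49.8 CPM (1.60) and H2-D1 with 1375 and 877 CPM (1.57). B2m, at 1960 and 1335 CPM (1.47), and Tap2, Psmb8 and Tapbp, at 1.34, 1.31 and 1.13, stayed under 1.5-fold. H2-K1, H2-D1 and Tap1 were close to that limit and fell below it, at 1.37 to 1.47, under 4 alternative settings each. Here too the cells were of different clusters, since 1970 of the 1975 PBS cells were in a cluster led by Atp6v0d2 and Gpnmb, and most of the others in one led by Cbr2, Cd163 and Apoe. Monocyte markers summed to 1008 CPM in engineered MSC, 1459 CPM in native MSC and 259 CPM in PBS macrophage-like cells, and their part was not tested. No shared cluster held 50 macrophage-like cells of both engineered MSC and PBS.

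**Figure D2:**
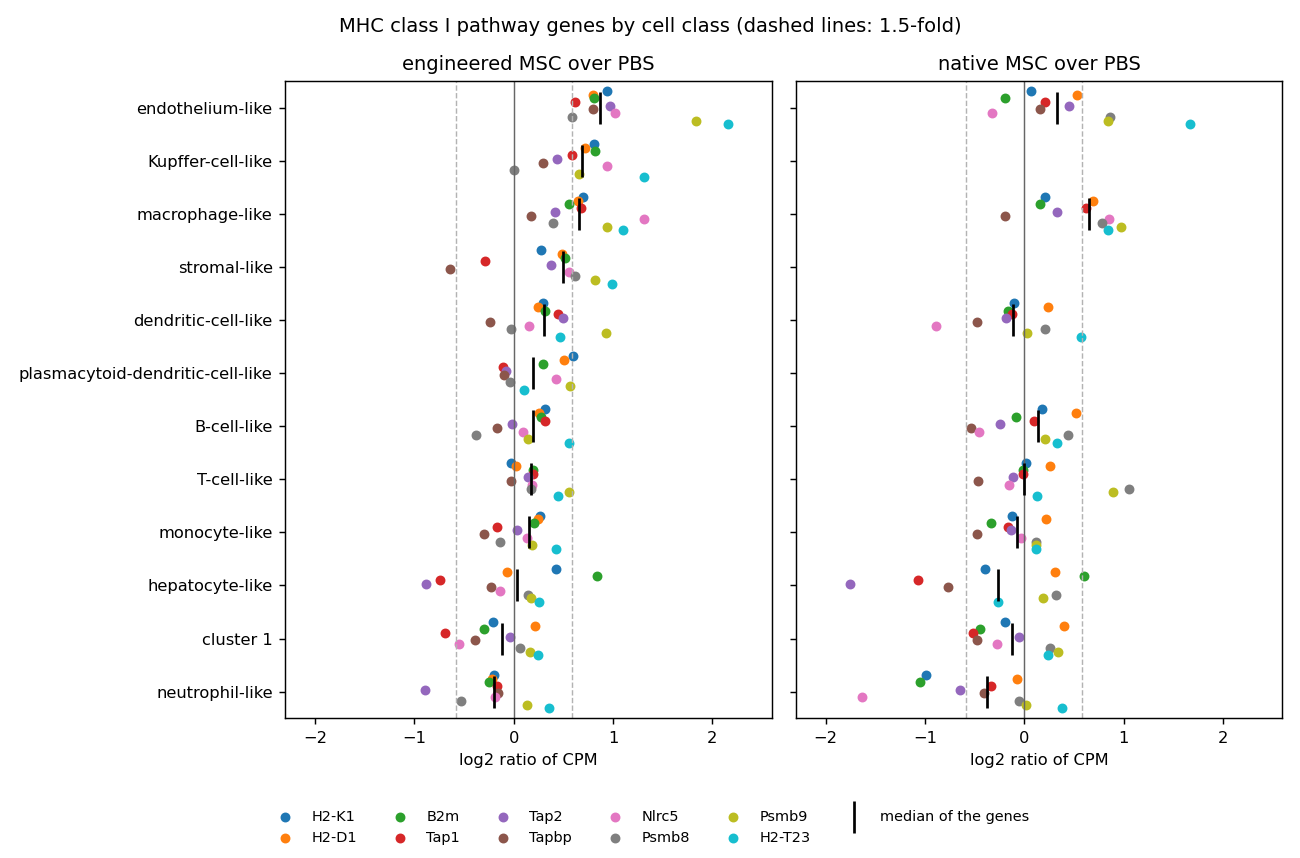
Log2 ratio of CPM for each of the 10 genes by cell class, engineered MSC over PBS on the left and native MSC over PBS on the right; black ticks mark the median of the genes and dashed lines the 1.5-fold limits. In engineered MSC all 10 genes of endothelium-like cells lie right of the upper limit (median 0.87), and in native MSC the neutrophil-like median lies at -0.37.

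The remaining classes differed less, and unevenly among the genes. Dendritic-cell-like cells had 1 of 10 genes higher (15% of all genes; median log2 ratio 0.31 against -0.03): Psmb9, at 554 CPM in engineered MSC and 290 CPM in PBS (ratio 1.91, 1.74 to 2.10, but 1.43 with coarser clusters). Markers of type 1 dendritic cells, which are specialised in showing captured antigen on class I, summed to 5127 CPM in engineered MSC, 1255 CPM in native MSC and 1859 CPM in PBS in this class, and their part was not tested. Macrophage markers in the same class summed to 1110, 3215 and 2778 CPM in that order, and their part was not tested either. Stromal-like cells had 3 of 10 higher (19%) and 1 lower (20.8%), with H2-T23 at 1.99-fold, Psmb9 at 1.76-fold, Psmb8 at 1.54-fold and Tapbp at 0.640 (0.489 to 0.835), the last turning to 1.13 with marked doublets kept. Stellate markers in that class were at 25880 CPM in engineered MSC and 8974 CPM in PBS. In plasmacytoid-dendritic-cell-like cells 1 of 10 was higher (10.5%), H2-K1 at 2234 CPM in engineered MSC and 1476 CPM in PBS (1.51, 1.40 to 1.64).

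T-cell-like, B-cell-like and monocyte-like cells had 0 of 10 genes past 1.5-fold in either direction, where 17.5%, 13.8% and 10.2% of all genes were higher and 8.45%, 9.9% and 13.9% were lower. Medians were 0.18, 0.20 and 0.16. The last turned to -0.0015 with the pathway genes eligible as variable genes for clustering, although 0 of the 10 genes were then chosen. The counts still separate small differences in these classes: H2-T23 was 1.37-fold (1.15 to 1.64), 1.47-fold (1.24 to 1.76) and 1.34-fold (1.15 to 1.55) in the 3 classes. In T-cell-like cells H2-K1 was at 2165 CPM in engineered MSC and 2202 CPM in PBS (0.983, 0.945 to 1.02). Nearly all B-cell-like cells of engineered MSC, 1594 of 1606, were in a cluster of their own, as were 517 of the 1240 T-cell-like cells. In a shared T-cell cluster of 174 and 278 cells, led by Ccl5, Xcl1, Cd8b1 and Cd8a, 2 of 10 genes were higher in engineered MSC (18.9% of all genes). These were Psmb9 at 1.84-fold and H2-T23 at 1.56-fold. In another, of 456 and 124 cells, led by Atp8a2, Il4 and Cxcr6, 0 of 10 were higher (18.7%) and 0 lower (11.7%), with a median of 0.05.

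Hepatocyte-like cells split by gene. B2m was at 841 CPM in engineered MSC and 470 CPM in PBS (ratio 1.79, 1.65 to 1.94) and was the 1 gene of 10 past 1.5-fold upward (21% of all genes). H2-K1 was at 256 and 191 CPM (1.34, 1.18 to 1.53) and H2-D1 at 112 and 118 CPM (0.952). The transporter genes were near the limit of detection, Tap1 at 4.84 and 8.11 CPM and Tap2 at 3.67 and 6.76 CPM, and both counted as lower (26.5% of all genes) although their intervals, 0.300 to 1.27 and 0.252 to 1.27, include 1 and Tap1 turned to 1.14 when each cell was counted alike. Most engineered MSC cells of this class, 1502, were in a cluster led by Sult2a8 and Car3, and nearly all others in a cluster led by Saa2 and Saa1. Within the cluster led by Saa2 and Saa1 0 of the 7 genes that could be measured passed 1.5-fold in either direction (15.6% of all genes were higher and 21.3% lower).

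Neutrophil-like cells and a cluster without a name, led by Ppbp, Areg, Ccl7 and Spp1 and called cluster 1 here, did not share the upward direction. In neutrophil-like cells the median log2 ratio was -0.20 (0.004 with finer clusters), with 0 of 10 genes higher (16.2%) and Tap2 lower (17.4%), at 50.4 CPM in engineered MSC and 93.5 CPM in PBS (0.539, 0.358 to 0.794, but 0.74 with marked doublets kept). In cluster 1 the median was -0.12 (0.04 with each cell counted alike), with 0 of 10 higher (12.4%) and Tap1 lower (19.2%), at 41.7 and 67.4 CPM (0.619, 0.482 to 0.786). Within the neutrophil cluster led by Il23a, Ptgs2 and Siglecf, 6 of 10 genes were lower in engineered MSC than in PBS (23.3% of all genes; median -0.73), from only 63 and 491 cells. Within the one led by Retnlg, Stfa2 and Ly6g, of 50 and 120 cells, 1 of 9 was lower (26.4%; median -0.23). Another 128 of the 241 engineered MSC cells were in a cluster nearly of their own, with 4886 CPM of the 10 genes. PBS cells of the shared clusters had 4832 and 4145 CPM.

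**Figure D3:**
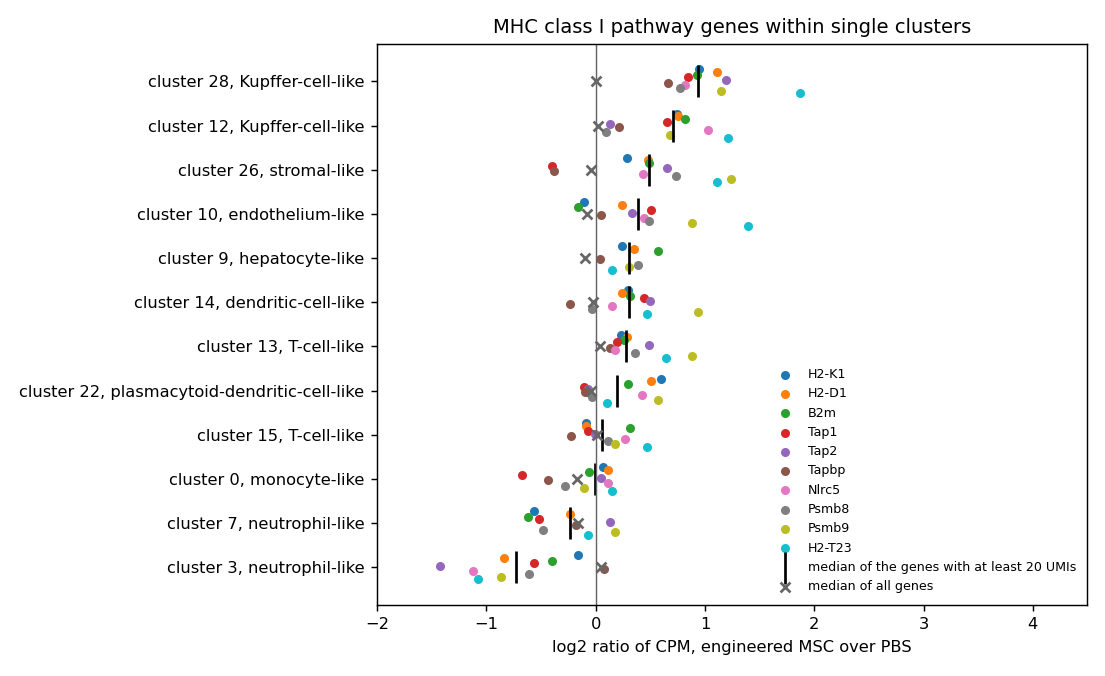
Log2 ratio of CPM, engineered MSC over PBS, of the 10 genes within single clusters with at least 50 cells in each library; black ticks mark the median of the genes and crosses that of all genes. Both Kupffer-cell-like clusters lie highest (medians 0.93 and 0.71) and a neutrophil-like cluster lowest (-0.73), and the endothelium-like cluster shared by the libraries has a median of 0.39. The Kupffer-cell-like cluster with the median of 0.93 had sinusoidal endothelium as its next lineage by marker score.

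Between native MSC and PBS, 12 of 89 pairs over 9 classes were higher in native MSC and 8 were lower. The 12 were 13.5% of the pairs, close to the 13% over all genes, and the 8 were 8.99%, against 18.5% over all genes. Over the same 9 classes engineered MSC had 18 of 90 pairs above PBS and 4 below. These were 20% and 4.44% of the pairs, against 16.2% and 15.8% over all genes. In native MSC the median log2 ratio was above 0 in 4 of 9 classes and above that of all genes in 7. Macrophage-like cells had 6 of 10 genes higher (14.3% of all genes; median 0.66). Psmb9 was at 163 CPM in native MSC and 83.2 CPM in PBS (ratio 1.96, 1.80 to 2.13), Nlrc5 at 36.1 and 20.0 CPM (1.81, 1.52 to 2.15), H2-T23 at 154 and 86.2 CPM (1.79), Psmb8 at 304 and 177 CPM (1.72), H2-D1 at 1419 and 877 CPM (1.62) and Tap1 at 76.3 and 49.8 CPM (1.53). H2-D1, Nlrc5 and Tap1 fell below 1.5-fold, at 1.25 to 1.47, under 3 or 4 alternative settings each. H2-K1 and B2m reached 1.16-fold and 1.11-fold. The comparison shares its PBS cells with that of engineered MSC, and the same difference of clusters and of monocyte markers stands beside it.

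In endothelium-like cells 3 of 10 genes were higher in native MSC (15.4% of all genes; median 0.33 against PBS, from 133 and 1085 cells). H2-T23 was at 114 CPM in native MSC and 35.8 CPM in PBS (ratio 3.19, 2.61 to 3.89), Psmb8 at 83.3 and 45.9 CPM (1.81, 1.46 to 2.24) and Psmb9 at 45.2 and 25.1 CPM (1.80, 1.34 to 2.40). B2m, at 899 and 1025 CPM, lay below (0.877, 0.826 to 0.931). Most of these native MSC cells, 86, shared the cluster of the PBS cells, and within it the same 3 genes passed 1.5-fold at 3.18, 1.84 and 1.72 (14.0% of all genes).

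T-cell-like cells of native MSC had 2 of 10 genes higher (18.3%; median 0.00), Psmb8 and Psmb9. Psmb8 was at 568 CPM in native MSC and 272 CPM in PBS (ratio 2.08, 1.86 to 2.34) and Psmb9 at 276 and 148 CPM (1.86, 1.59 to 2.18, but 1.38 with coarser clusters), whereas H2-K1 was at 2223 and 2202 CPM (1.01). Genes of the standard proteasome were higher in these cells too, 3 of 4 with a median log2 ratio of 0.61. Within the T-cell cluster led by Ccl5 and Xcl1, Psmb8 was 1.97-fold and Psmb9 1.56-fold (15.9%). Another T-cell cluster, led by 1500009L16Rik, Gzmb and Ifng, held 84 native MSC cells but 6 PBS cells. Its native MSC cells had Psmb8 at 690 CPM and Psmb9 at 411 CPM. The part of this cluster in the values of the class was not tested. B-cell-like, monocyte-like and cluster 1 cells had 0 of 10 genes higher (7.09%, 7.09% and 11.1%) and 0 lower (13.5%, 15.2% and 17.7%). The monocyte-like class joined clusters that differed. In the one led by Acta1, Ace and Adgre4, of 441 and 906 cells, 3 of 10 genes were higher (9.15%; median 0.48). These were H2-T23 at 1.68-fold, Psmb9 at 1.66-fold and Nlrc5 at 1.51-fold. In the one led by Vcan, Ly6a2 and Chil3, of 1837 and 758 cells, 0 were higher (7.39%; median 0.05). Dendritic-cell-like cells had 0 higher (8.03%) and 1 lower (15.4%), Nlrc5, at 47.0 CPM in native MSC and 86.7 CPM in PBS (0.542, 0.395 to 0.731). The markers of type 1 dendritic cells and macrophages given above for this class stand beside it, and their part was not tested.

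Neutrophil-like cells were the class in which native MSC lay furthest below PBS, with 4 of 10 genes lower (18% of all genes), 0 higher (21.5%) and a median log2 ratio of -0.37. B2m was at 655 CPM in native MSC and 1352 CPM in PBS (ratio 0.485, 0.459 to 0.512) and H2-K1 at 441 and 873 CPM (0.505, 0.473 to 0.541). Tap2 was at 59.9 and 93.5 CPM (0.640, but 0.73 with marked doublets kept). Nlrc5 was at 8.19 and 25.4 CPM (0.322, 0.209 to 0.503). H2-D1, in contrast, was at 1658 and 1748 CPM (0.949) and H2-T23 at 140 and 108 CPM (1.30, 1.09 to 1.56). Markers of immature neutrophils summed to 4396 CPM in engineered MSC (6 of 8 with UMIs, Elane and Mpo at 0), 7006 CPM in native MSC (8 of 8) and 1058 CPM in PBS (5 of 8, Camp, Elane and Mpo at 0), and their part was not tested. Within the cluster led by Il23a, Ptgs2 and Siglecf, 6 of 10 genes were lower in native MSC (10.9%; median -0.66), and within the one led by Retnlg, Stfa2 and Ly6g 3 of 10 were (24.6%; median -0.14).

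In hepatocyte-like cells 9 genes could be measured, with 1 higher in native MSC (13.8% of all genes) and 3 lower (30.6%). B2m was at 713 CPM in native MSC and 470 CPM in PBS (ratio 1.52, 1.40 to 1.65, but 1.39 with marked doublets kept). Tapbp, Tap1 and Tap2 were lower, at 11.1 and 18.9 CPM (0.588, but 0.83 with marked doublets kept), 3.86 and 8.11 CPM (0.476, with an interval of 0.231 to 1.04) and 2.01 and 6.76 CPM (0.297, 0.120 to 0.757).

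Across the 9 classes, H2-D1, Psmb8 and H2-T23 were each above 1-fold in 8 and Psmb9 in all 9, while Tapbp was below 1-fold in 8 and B2m in 7 (5 with class totals scaled by edgeR's TMM factors). The intervals lay on that side of 1 in 8 classes for H2-D1, 8 for Psmb8, 6 for H2-T23, 5 for Psmb9, 8 for Tapbp and 5 for B2m.

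Set against native MSC, engineered MSC had 13 of 100 pairs higher and 10 lower over 10 classes, where 18% and 15.1% of pairs over all genes were higher and lower, and 8 of those 10 were in erythroid-like cells. In endothelium-like cells 5 of 10 genes were higher (18.4%; median log2 ratio 0.58): Nlrc5, at 30.4 CPM in engineered MSC and 12.0 CPM in native MSC (ratio 2.53, 1.56 to 4.40), B2m (1.99), Psmb9 (1.99), H2-K1 (1.83) and Tapbp (1.56). Within the cluster shared by 72 and 86 cells the median was -0.20, with Nlrc5 at 1.86-fold and Tap1 at 1.53-fold higher (8.5%). Dendritic-cell-like cells had 3 higher (21.3%), Nlrc5 at 96.4 CPM in engineered MSC and 47.0 CPM in native MSC (2.05, 1.49 to 2.87), Psmb9 at 554 and 295 CPM (1.88) and Tap2 at 142 and 88.5 CPM (1.60). In this class markers of type 1 dendritic cells were at 5127 and 1255 CPM and macrophage markers at 1110 and 3215 CPM. Their part was not tested. Neutrophil-like cells had 3 higher (18.3%), Nlrc5 at 22.3 and 8.19 CPM (2.72, 1.44 to 4.82), B2m at 1140 and 655 CPM (1.74) and H2-K1 at 761 and 441 CPM (1.72). Hepatocyte-like cells had 2 higher (26.2%), H2-K1 at 1.76-fold and Tap2 at 1.82-fold, the second with an interval of 0.899 to 3.88 and 1.28 with marked doublets kept.

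Psmb8 was below 1-fold in engineered MSC over native MSC in all 10 classes, with intervals below 1 in 9, and H2-D1 in 7 with intervals below 1 in 6. Per UMI of the standard subunit Psmb5, however, Psmb8 was higher in engineered MSC in 7 of 10 classes, with intervals apart in 3. T-cell-like cells had 307 CPM in engineered MSC and 568 CPM in native MSC (ratio 0.541, 0.506 to 0.578), and B-cell-like cells 157 and 277 CPM (0.567, 0.492 to 0.656), where 11.2% and 8.68% of all genes were lower. B2m and Tapbp lay above 1-fold in 9 of 10 classes. Macrophage-like, monocyte-like and cluster 1 cells had 0 of 10 genes higher (11.5%, 16.2% and 10.1%) and 0 lower (5.75%, 8.34% and 7.49%). In erythroid-like cells 8 of 10 genes were lower in engineered MSC, where 75.2% of all genes were, and the medians were -1.30 for the 10 genes and -1.36 for all genes.

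The balance between the classical heavy chains differed between libraries in the classes compared. UMIs of H2-D1 per UMI of H2-K1 numbered 1.98 in neutrophil-like cells of engineered MSC, 3.76 of native MSC and 2.00 of PBS, and 0.477, 0.544 and 0.460 in T-cell-like cells. Macrophage-like cells had 1.05, 1.52 and 1.09, endothelium-like cells 0.591, 0.900 and 0.653, and hepatocyte-like cells 0.437, 1.00 and 0.617. Native MSC was above PBS in 9 of 9 classes, with intervals apart in 9, and engineered MSC was below native MSC in 10 of 10, with intervals apart in 10. Engineered MSC and PBS showed no such order, the ratio being higher in engineered MSC in 3 of 12 classes. Alleles at these genes differ between mouse strains, and the strain was not given, so allele, read assignment and expression cannot be told apart. Neutrophil transcripts were higher than in PBS in hepatocyte-like, macrophage-like and endothelium-like cells of native MSC, and their part in this balance was not tested.

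Psmb9 takes the place of the standard subunit Psmb6 when the immunoproteasome is assembled, so their ratio shows the make-up of the transcripts independently of the class total. In endothelium-like cells Psmb9 had 1.02 UMIs per UMI of Psmb6 in engineered MSC, 0.352 in native MSC and 0.162 in PBS. In macrophage-like cells the ratio was 0.639, 0.507 and 0.191, and in Kupffer-cell-like cells 1.22 in engineered MSC and 0.451 in PBS. Dendritic-cell-like cells had 4.41, 1.54 and 1.62, T-cell-like cells 2.32, 1.52 and 1.5, and hepatocyte-like cells 0.153, 0.110 and 0.0878. Engineered MSC was above PBS in 10 of 12 classes with intervals apart in 10, native MSC above PBS in 6 of 9 with intervals apart in 3, and engineered MSC above native MSC in 9 of 10 with intervals apart in 6. For Psmb8 per UMI of Psmb5, its standard counterpart, endothelium-like cells had 1.03, 0.702 and 0.375, and engineered MSC was above PBS in 11 of 12 classes with intervals apart in 6. These ratios also carry the lower level of the standard subunits given next.

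**Figure D4:**
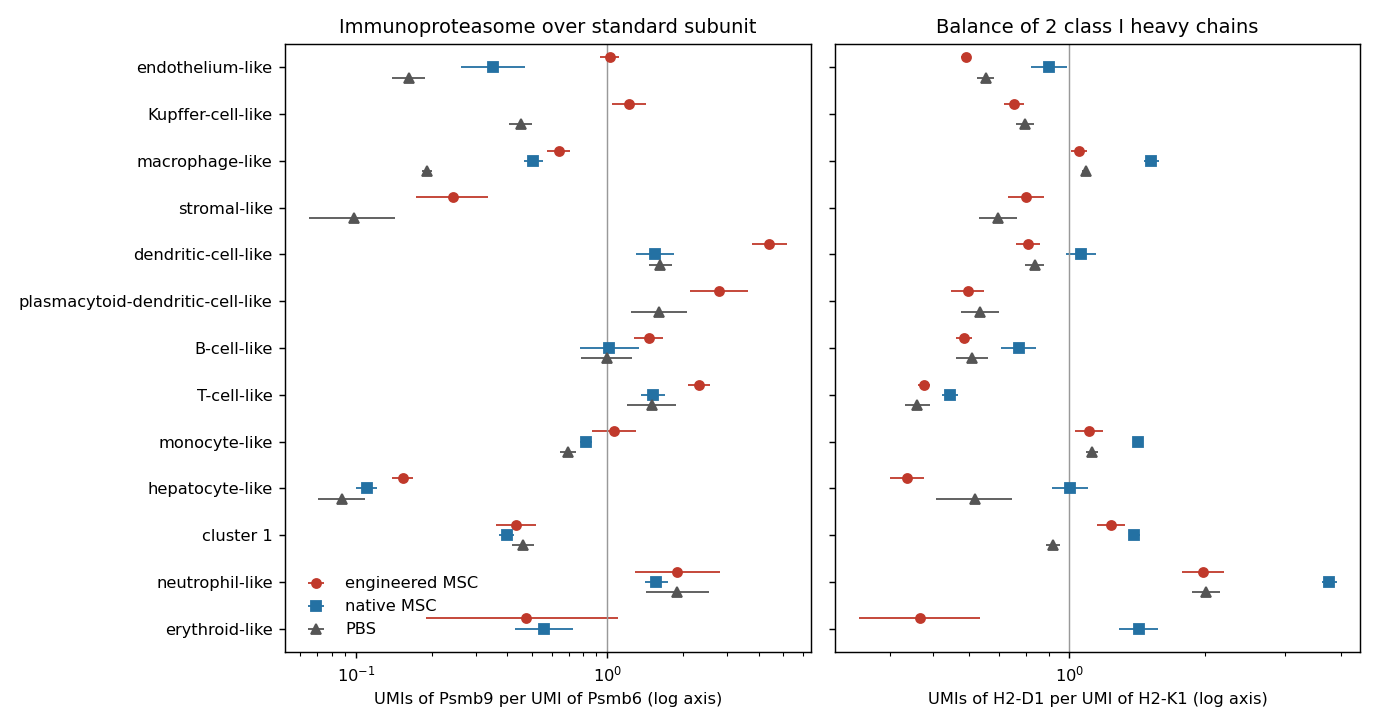
UMIs of Psmb9 per UMI of its standard counterpart Psmb6 (left) and of H2-D1 per UMI of H2-K1 (right) by cell class and library, on log axes; bars are exact 95% intervals for counting error. Engineered MSC lies right of PBS for Psmb9 per Psmb6 in endothelium-like cells (1.02 against 0.162), and native MSC lies right of the other libraries for H2-D1 per H2-K1, furthest in neutrophil-like cells (3.76).

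Other genes of the pathway were followed as fixed lists, counted by the same 1.5-fold limit in engineered MSC over PBS. Of the other class I heavy chains, 9 of 9 measured were higher in endothelium-like cells (median log2 ratio 1.51), 8 of 9 in Kupffer-cell-like cells (1.59) and 9 of 9 in macrophage-like cells (1.45), set against the same shares of all genes as above. In endothelium-like cells H2-T24 was at 41.1 CPM in engineered MSC and 1.94 CPM in PBS (ratio 21.2, 12.7 to 38.1), and Mr1, which presents vitamin metabolites to MAIT cells, at 16.5 and 4.40 CPM (3.76). Cd1d1, which presents lipids to NKT cells, was 5.61-fold higher in Kupffer-cell-like and 4.21-fold higher in macrophage-like cells. H2-Q10, a secreted heavy chain made by hepatocytes, was 9.74-fold to 14.9-fold higher in these 3 classes, beside the hepatocyte transcripts described above.

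Standard proteasome genes moved the other way, with 3 of 4 lower in each of the 3 classes and medians of -0.84, -0.80 and -0.72. In endothelium-like cells Psmb5 was at 66.9 CPM in engineered MSC and 122 CPM in PBS (0.547), Psmb6 at 88.1 and 155 CPM (0.568) and the nuclear activator Psme3 at 33.9 and 72.1 CPM (0.471). Of 3 other interferon-inducible subunits, 1 was higher in endothelium-like cells, Psmb10 at 75.1 and 50.1 CPM, and 0 in the others. Chaperones and trimming enzymes were divided, with 1 of 9 higher and 4 lower in endothelium-like cells. There the tapasin relative Tapbpl was at 2.57-fold and the endoplasmic reticulum chaperone Hspa5 at 0.348.

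Among 11 regulators, 6 were higher in endothelium-like cells, 6 in Kupffer-cell-like cells and 4 in macrophage-like cells, and 0 were lower. Irf1, an interferon-induced activator of class I genes, was at 187 CPM in engineered MSC and 75.0 CPM in PBS in Kupffer-cell-like cells (2.50) and at 112 and 39.2 CPM in macrophage-like cells (2.86). The feedback inhibitor Socs1 was at 36.9 CPM in engineered MSC and 16.2 CPM in PBS in endothelium-like cells (2.28). Genes of the interferon gamma response were higher in 9 of 10 in endothelium-like cells (median 1.64), 10 of 10 in Kupffer-cell-like cells (2.30) and 10 of 10 in macrophage-like cells (2.97), with the guanylate-binding protein Gbp5 at 5.47-fold in the first, Gbp4 at 10.9-fold in the second and the chemokine Cxcl9 at 15.3-fold in the third. Type I interferon response genes were higher in 9, 9 and 8 of 10 (medians 1.45, 1.19 and 0.77), with Ifit3 at 7.62-fold in endothelium-like cells. Ifng itself was at 91.4 CPM in T-cell-like cells of engineered MSC, 210 CPM of native MSC and 101 CPM of PBS. The T-cell cluster led by 1500009L16Rik, Gzmb and Ifng held 93 of 1240, 84 of 432 and 6 of 408 of these cells in that order. Its part in the Ifng levels was not tested.

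MHC class II genes, which serve CD4 T cells, followed class I in some classes and not in others. In engineered MSC over PBS 7 of 7 were higher in macrophage-like cells (median 2.32) and 5 of 7 in Kupffer-cell-like cells (1.83), but 6 of 7 were lower in endothelium-like cells (-0.96), the class in which all 10 class I genes were higher. Ciita, the class II counterpart of Nlrc5, was at 24.2 CPM in engineered MSC and 2.07 CPM in PBS in macrophage-like cells and at 1.60 and 3.88 CPM in endothelium-like cells.

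In native MSC over PBS, macrophage-like cells had 8 of 9 interferon gamma response genes higher (median 1.48), 1 of 10 type I interferon response genes and 6 of 9 other heavy chains (0.67), where 14.3% of all genes were higher. Hepatocyte-like cells had 5 of 8 other heavy chains higher (0.97; 13.8% of all genes). Endothelium-like cells had 4 of 10 interferon gamma response genes higher and 2 lower, 5 of 8 other heavy chains higher, and 6 of 7 class II genes lower (-2.46), where 15.4% of all genes were higher and 16.2% lower. In neutrophil-like cells 5 of 9 type I interferon response genes were lower (-1.09; 18% of all genes), with Rsad2 at 64.7 CPM in native MSC and 354 CPM in PBS (0.183). In engineered MSC over native MSC, endothelium-like cells had all 10 type I and all 10 interferon gamma response genes higher (medians 1.75 and 1.15) and 6 of 9 other heavy chains, where 18.4% of all genes were.

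Over 35 pairs of a class and a library, the 5 genes whose log2(CPM + 1) was most like the mean of the 10 genes, among 7123 genes with at least 20 CPM on average, were Sp110 (Pearson r 0.946), Elf4 (0.944), Fnbp1 (0.943), Prex1 (0.927) and Ap3b1 (0.919). Each of the 10 genes correlated with the mean of the others at 0.784 (Psmb9) to 0.958 (Tap1). Irf1 was at 0.803, whereas the mean of the class II list was at 0.530, that of the type I interferon list at 0.616, and Psmb5 at -0.206. The points share libraries and depth, so these values describe the order of classes and carry no test.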

How the data were processed

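Per the submitters' processing notes, reads were processed with Cell Ranger 7.1.0 against GRCm39, and UMI counts per gene and barcode are the deposited values, not normalized by the authors. Per the labels' protocols, the libraries were 10x Genomics 3′ libraries (Chromium v3.1) of dissociated liver after red cell lysis. Each file holds 1 sample, and no other per-sample columns were left over.

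A barcode was kept if it had 200 or more genes, 500 or more UMIs and no more than 20% mitochondrial UMIs. Scrublet in scanpy 1.11.5 scored doublets, and barcodes were removed at 0.8% per 1000 barcodes, which took out 973 barcodes of engineered MSC, 1054 of native MSC and 923 of PBS. Cells were clustered on 2000 variable genes, without the 10 genes or the pathway lists, with 30 principal components, 15 neighbours and Leiden resolution 1 (leidenalg 0.10.2). Clusters were named from marker lists (at least 3 markers at least 1.5-fold up, and a score of at least 0.5 that led the next lineage by at least 0.5). A cluster of low UMI depth needed at least 2 of its own markers among its top 10 genes. Of the marker genes Fcn3, and of the other heavy chains H2-T10, did not match a symbol.

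UMIs were summed per class and library. Levels carry exact Poisson 95% intervals and ratios exact conditional binomial 95% intervals, and all cover counting error only. No test between conditions is possible with 1 mouse per group. Only the ratio intervals and the 1.5-fold calls were tested on simulated counts with known folds, for endothelium-like and Kupffer-cell-like cells. Those counts were drawn from a Poisson model, the kind of error the intervals assume. Filtering, doublet removal, clustering and naming of classes were not tested on simulated data. Alternatives were other cell filters, doublets kept, other resolutions, and clustering with the pathway genes eligible as variable genes. In the last, 0 of the 10 genes were chosen as variable. Further alternatives were each cell counted alike, edgeR 4.0.16 TMM-scaled class totals, totals without mitochondrial, ribosomal, haemoglobin and hepatocyte transcripts, and no UMI minimum. All 10 genes are named, with up to 3 genes per pathway list, class and comparison that had at least 50 UMIs and the ratio furthest from 1. The 10 genes and the lists were chosen with earlier results of these data known.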

Additional observations from a re-analysis of the deposited data

Results flagged for a closer look

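Nlrc5 went opposite ways in native MSC over PBS in 2 cell classes. In macrophage-like cells it was 1.81-fold higher in native MSC (95% interval 1.52 to 2.15, and 1.39 to 1.47 under 3 alternative settings), and in neutrophil-like cells it stood at 0.322 of PBS (0.209 to 0.503), or 3.11-fold lower. With 1 library per group the difference between these ratios was not tested. Monocyte markers were at 1459 CPM in native MSC and 259 CPM in PBS in the first class, and markers of immature neutrophils at 7006 and 1058 CPM in the second, and their part was not tested.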

How the results depend on the processing

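No paired analysis was possible because each group has a single library. Of 304 class medians recomputed under alternatives, 287 stayed within a band and 17 moved outside it. The alternatives include the setting with no UMI minimum, under which a class median can change only where a gene had been left out. The band ran from the median of the single genes' lower interval limits to the median of their upper limits. It is not a counting interval of the class median itself. Of the class medians past 1.5-fold, 0 turned sign. For engineered MSC over PBS the medians kept to 0.84 to 0.88 in endothelium-like, 0.59 to 0.77 in Kupffer-cell-like and 0.48 to 0.91 in macrophage-like cells. For native MSC over PBS they ran from 0.41 to 0.88 in macrophage-like and from -0.82 to -0.34 in neutrophil-like cells. Of 716 recomputed single ratios past 1.5-fold outside the erythroid-like class, 667 stayed past it and 2 turned. These were Tapbp in stromal-like cells (1.13 with doublets kept) and Tap1 in hepatocyte-like cells (1.14 with each cell counted alike). Both were in engineered MSC over PBS. The 716 and the 667 include the setting with no UMI minimum, which cannot change a ratio and so tests no stability. It supplied 34 ratios for engineered MSC over PBS, 20 for native MSC over PBS and 15 for engineered MSC over native MSC.

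Counts of pairs in engineered MSC over PBS were 29 higher and 5 lower. The lower count was 3 with at least 500 genes per cell, 3 with no mitochondrial limit, 2 with doublets kept, 3 at resolution 0.5, 1 at resolution 2 and 8 within single shared clusters. The higher count was 19 at resolution 0.5, which left 7 classes. In native MSC over PBS the higher count of 12 was 5 at resolution 0.5, which left 5 classes, and the lower count of 8 was 14 within shared clusters. In engineered MSC over native MSC the lower count of 10 was 2 with at least 500 genes, 4 with TMM, 5 with the reduced class total, 5 within shared clusters and 2 without erythroid-like cells, and the higher count of 13 was 22 with each cell counted alike. The median summed level over classes and libraries, 3890.1 CPM, was 4028.2 with at least 500 genes, 4046.8 with no mitochondrial limit, 4057.1 at resolution 0.5 and 4123.9 at resolution 2. Fewer classes could be compared under several of these settings: for engineered MSC over PBS 10 with at least 500 genes, with no mitochondrial limit and at resolution 2, and 11 with doublets kept, and for engineered MSC over native MSC 8 with at least 500 genes. Other causes of these moves were not tested.

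Shared clusters and the class left out were chosen after seeing the data. TMM moved all log2 ratios of a class by 1.24 in erythroid-like cells (engineered MSC over native MSC) and by up to 0.27 elsewhere. Beside the changes of sign given in the report, the native MSC over PBS median was -0.27 in hepatocyte-like cells but 0.10 with each cell counted alike and 0.01 with TMM, -0.08 in monocyte-like cells but 0.02 at resolution 0.5 and 0.09 with TMM, and 0.00 in T-cell-like cells but -0.05 at resolution 0.5. In cluster 1 engineered MSC over native MSC was -0.10 but 0.01 with each cell counted alike. Hepatocyte-like cells held few UMIs of Tap1, Tap2 and Nlrc5, and the intervals of Tap1 included 1 in both comparisons with PBS, so a difference in Tap1 was not detectable at this depth.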

Other observations

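Partners that read class I molecules were measured in the lymphocytes. In T-cell-like cells Cd8a, the co-receptor for class I, was at 98.4 CPM in engineered MSC, 178 CPM in native MSC and 109 CPM in PBS. The libraries differed in the T-cell clusters that made up this class, and the part of that difference was not tested. Klrd1, which encodes CD94 and recognises the H2-T23 product, was at 237, 202 and 168 CPM in T-cell-like cells and at 916, 841 and 852 CPM in NK-or-ILC1-like cells in the same order, the last from only 32 PBS cells. Klrc1, its inhibitory partner NKG2A, was at 354, 273 and 265 CPM in NK-or-ILC1-like cells. Ifng in NK-or-ILC1-like cells was at 197, 237 and 170 CPM.

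H2-Q10, the secreted heavy chain known from hepatocytes, was also counted in neutrophil-like cells, at 510 CPM in engineered MSC, 225 CPM in native MSC and 366 CPM in PBS, against 545, 914 and 420 CPM in hepatocyte-like cells in the same order. Reads shared with other heavy chains were not told apart, so the gene of origin is uncertain.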
